A study of Mus musculus with 35 samples.

Results

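The genes described here are 9 transcription factor genes of mesenchymal cells: the homeobox genes Prrx1, Prrx2, Meox1 and Meox2, the T-box genes Tbx15 and Tbx18, the Runt-domain genes Runx1 and Runx2, and the forkhead gene Foxf1. They are 9 of the 21631 protein-coding genes of the gene table, and all 9 were found in it. Peaks over each gene and within 100 kb to either side were collected from the 22 deposited peak lists. This gave 1278 of 628867 peaks of acetylated histone H3 at lysine 27 (H3K27ac) and 426 of 274004 peaks of the transcription factor KLF4. Peaks of all libraries of a mark were merged where they overlapped, and a merged region was kept when at least 2 libraries of 1 stage supported it. The 9 genes held 224 of 106008 H3K27ac regions and 62 of 37134 KLF4 regions. A region counts as present in a stage if 2 or more of its libraries had a peak there, as absent if none had one, and as undecided otherwise.

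The study followed fibroblasts on their way to pluripotency and asked where KLF4 is bound along the way. Mouse embryonic fibroblasts (MEF) carried a polycistronic cassette of the genes for OCT4, KLF4, SOX2 and MYC in the Col1a1 locus and the M2rtTA transactivator in Rosa26, on a C57BL/6 x 129 background, and the H3K27ac libraries called MEF came from these cells before induction. For the other fibroblast-derived stages the cassette was switched on with 1 µg/ml doxycycline in ESC medium with 50 µg/ml ascorbic acid, and cells were taken in bulk at day 3 and after sorting for the surface antigen SSEA1 at day 6 and day 9. The endpoint is the V6.5 embryonic stem cell (ESC) line, labelled with that name as its genotype and grown with serum and LIF on irradiated feeder cells. For KLF4 it was also grown with 1 µM MEK inhibitor and 3 µM GSK3 inhibitor (2i). For H3K27ac there were 2 libraries of MEF, 3 of day 3, 3 of day 6, 2 of day 9 and 2 of ESC. For KLF4 each of its 5 stages (without MEF) had 2 libraries. The series text speaks of biological replicates but names no separate cultures or animals, so the tests measure the spread between these libraries, which may be technical.

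The factors differ in family but share a home in connective tissue. PRRX1 and PRRX2 are paired-type homeodomain proteins of limb and craniofacial mesenchyme, and PRRX1 is widely used as a mark of mesenchymal progenitors. MEOX1 and MEOX2 pattern the somites, TBX15 and TBX18 act in skeletal and mural cell development, and FOXF1 is a factor of the mesenchyme around gut and lung. RUNX1 is best known from blood formation and RUNX2 from bone formation, both bind DNA together with CBFB, and both genes are transcribed from alternative promoters. H3K27ac marks active enhancers and promoters, and KLF4 binds GC-rich and CACCC elements.

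The promoters of the Runx genes are shown because the 3 start sites of this family in the gene table behaved differently (below). Each run holds the 250 bases before the start and the 50 bases from the start on, 5′ to 3′ on the gene's strand, from RefSeq (GRCm38.p6). Capitals mark the core of the RUNX motif, TGTGGT on either strand. The distal promoter of Runx1 lies at chr16:92826025-92826324 on the minus strand, the proximal one at chr16:92697280-92697579 on the minus strand, and the Runx2 promoter at chr17:44814578-44814877 on the minus strand.
Runx1 distal promoter: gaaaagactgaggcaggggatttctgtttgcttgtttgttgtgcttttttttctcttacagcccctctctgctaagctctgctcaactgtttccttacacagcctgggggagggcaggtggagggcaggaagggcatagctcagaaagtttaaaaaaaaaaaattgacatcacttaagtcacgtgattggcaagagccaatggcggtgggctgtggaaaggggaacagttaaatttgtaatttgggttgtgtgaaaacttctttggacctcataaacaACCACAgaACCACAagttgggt
Runx1 proximal promoter: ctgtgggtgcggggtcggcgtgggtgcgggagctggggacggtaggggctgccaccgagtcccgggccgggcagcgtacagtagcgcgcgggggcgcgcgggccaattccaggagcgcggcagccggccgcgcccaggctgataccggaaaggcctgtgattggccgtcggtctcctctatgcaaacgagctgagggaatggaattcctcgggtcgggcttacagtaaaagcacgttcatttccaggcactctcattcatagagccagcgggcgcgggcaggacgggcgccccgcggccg
Runx2 promoter: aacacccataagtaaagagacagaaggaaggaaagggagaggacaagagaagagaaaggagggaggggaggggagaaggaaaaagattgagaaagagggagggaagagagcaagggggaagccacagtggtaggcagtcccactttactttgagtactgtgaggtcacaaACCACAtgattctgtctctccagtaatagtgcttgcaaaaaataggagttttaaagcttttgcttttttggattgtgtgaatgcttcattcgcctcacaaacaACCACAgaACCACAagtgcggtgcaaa

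TGTGGT occurred in 16.76% of the 32851 promoters of the table. With the start base as position 0, the distal Runx1 promoter held it at positions 28 and 36 and the Runx2 promoter at -80, 23 and 31. The proximal Runx1 promoter held none. CACCC, part of many KLF sites and found on either strand in 57.52% of all promoters, was in the proximal Runx1 promoter at -246 and -229, in the Runx2 promoter at -248, in the Prrx2 promoter at -246 and -184 and in the Tbx18 promoter at -218. The proximal Runx1 promoter held 35 CpG dinucleotides against 2 in the distal Runx1 promoter and 2 in the Runx2 promoter. The longer KLF motifs GGGTGTGG (3.56% of all promoters) and GGGCGTGG (5.33%) were in none of the 7 promoters the table holds for Prrx1, Prrx2, Meox2, Tbx18, Runx1 and Runx2. A motif match is a description of these letters and not a binding site. The peaks divided the 3 sites. Over the 300 bases of the proximal Runx1 promoter, H3K27ac peaks lay in all 12 libraries and KLF4 peaks in all 8 libraries of days 3, 6 and 9 and serum ESC, but in neither 2i library. Over the 1 Runx2 promoter of the table, H3K27ac peaks lay in both MEF libraries and all 3 of day 3 and in no later one, and no KLF4 library had a peak there. Other promoters of Runx2 were not assessed. Over the distal Runx1 promoter no library of either mark had a peak.

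Across the 9 genes, MEF had 173 of the 224 H3K27ac regions, day 3 had 69, day 6 had 23, day 9 had 45 and ESC had 62. MEF was the stage with the most regions over the genome too, where of 106008 regions the counts in that order were 59940, 26911, 12904, 31620 and 48576. With equal numbers of top peaks per list, the 9 genes had 41 regions in MEF, 30 on day 3, 22 on day 6, 23 on day 9 and 16 in ESC, so that ESC fell below day 9 and day 6. Of the 173 MEF regions, 53 (30.64%) were also present at day 3, 30 (17.34%) at day 9 and 31 (17.92%) in ESC. Over the whole genome 31.3% of MEF regions were present at day 3, 27.2% at day 9 and 26.5% in ESC, so the share kept at day 3 was near the background and those at day 9 and in ESC were below it. In bulk chromatin, fewer cells with a mark and less of the mark per cell cannot be told apart. These shares come without a test, since regions of 1 window are not independent. Inside the genes and within 2.5 kb of them, where 105 of the regions lay, MEF had 85, day 3 had 42, day 6 had 7, day 9 had 18 and ESC had 12. Of the 62 KLF4 regions day 3 had 35, day 6 had 27, day 9 had 22, serum ESC had 24 and 2i had 19, beside 17895, 14920, 19119, 16127 and 15073 of 37134 over the genome.

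The lists themselves differ in extent, and that touches each comparison. The H3K27ac lists covered 82.8 and 83.5 Mb in MEF, 23.8 to 38.4 Mb at day 3, 9.21 to 19.9 Mb at day 6, 48.9 and 49.5 Mb at day 9 and 62.3 to 66.3 Mb in ESC, and the KLF4 lists 4.45 to 15.2 Mb. The read depth behind the lists is unknown, and a window without a peak is not a window without signal. Stages were therefore compared on the length under peaks in the gene with 100 kb to each side, in base pairs per Mb covered by the list, as log2 after adding 10. limma was fitted over all windows with a peak in at least 2 libraries, 20649 for H3K27ac and 19980 for KLF4, with Benjamini-Hochberg adjustment over all of them. Without the scaling the median of all windows moved from 0.08 to -1.07 for day 3 minus MEF, from 0.34 to -0.27 for day 9, from 0.25 to -0.06 for ESC and from 0.13 to -0.42 for KLF4, so that every difference below is relative to the extent of the list. Of all windows 3959 were lower and 6588 higher at day 3 with the scaling, and 14055 and 260 without it. The split was 3489 and 8613 against 5431 and 1952 at day 9, 5334 and 8532 against 5695 and 4940 in ESC, and 1232 and 2409 against 1422 and 166 for KLF4.

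A list of 10 fibroblast marker genes, collagens among them, was set against the labels. In MEF all 10 had an H3K27ac peak in 2 libraries over the gene or within 2.5 kb. Day 3 had 8 such markers, day 6 had 2, day 9 had 3 and ESC had 4 (Col1a1, Fn1, Pdgfra and Twist2). Their summed length under peaks was 77.6 to 79.3 kb in MEF, 9.3 to 20.4 kb at day 3, 1.5 to 2.2 kb at day 6, 8.89 to 9.69 kb at day 9 and 17.6 to 18.4 kb in ESC. Col3a1, Postn and Thy1 were among the 5 markers without a peak in either ESC library. Feeder chromatin in the ESC libraries was not tested for its part in the ESC values. All 10 pluripotency markers had a peak in ESC and 8 had one at day 9, against 4 in MEF. Both lists have to be read beside the 21631 protein-coding genes, of which 66.3% had such a peak in MEF. Day 6 had the lowest share, 49.3%. The other shares were 65.9% for ESC, 63.5% for day 9 and 57.5% for day 3.

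At day 3, 4 of the 9 genes had less H3K27ac than in MEF (Prrx2, Meox1, Tbx15 and Foxf1), while 19.2% of all windows were lower, and 2 had more (Runx1 and Meox2), while 31.9% of all windows were higher. At day 9, 7 were lower (Prrx1, Prrx2, Meox2, Tbx15, Tbx18, Runx2 and Foxf1; 16.9% of all windows) and none was higher (41.7% of all windows). In ESC, 6 were lower (Prrx1, Meox2, Tbx15, Runx1, Runx2 and Foxf1; 25.8% of all windows) and none was higher (41.3%). The medians of the 9 differences were -0.44 (day 3), -0.91 (day 9) and -1.55 (ESC), beside 0.08, 0.34 and 0.25 over all windows. For KLF4, ESC minus day 3, 4 of the 9 were lower (Prrx1, Meox2, Tbx15 and Runx1; 6.17% of all windows) and Prrx2 was higher (12.1% of all windows), with a median of -0.74 beside 0.13. The 3 H3K27ac comparisons share the MEF libraries and are not independent of each other.

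**Figure D1:**
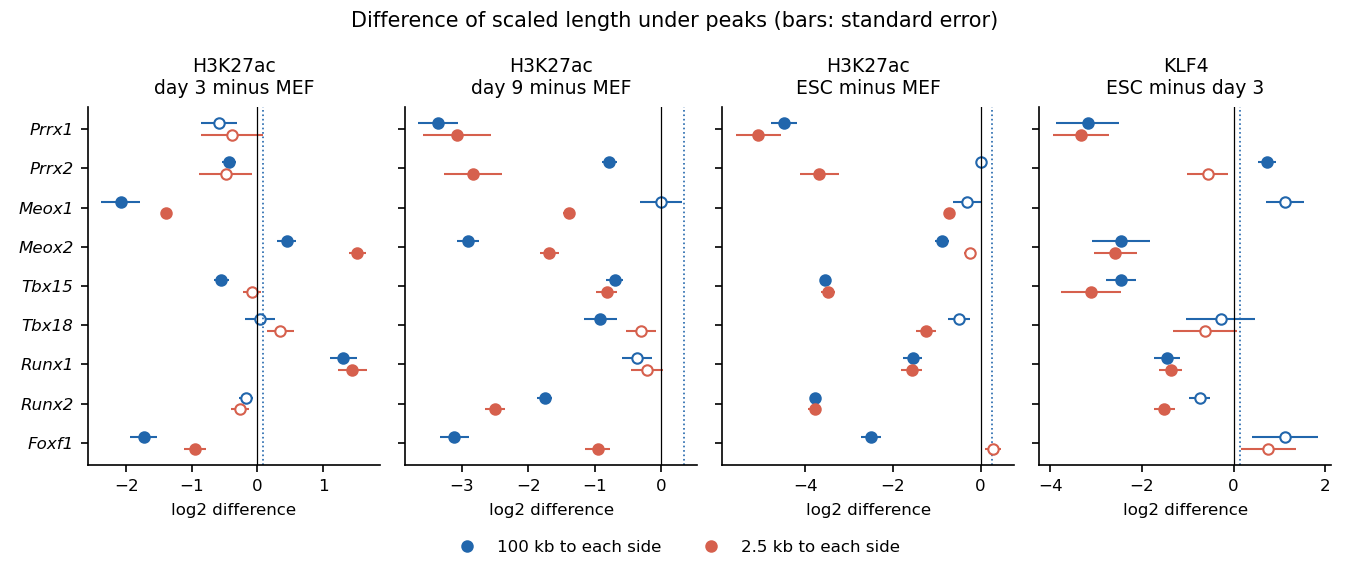
Difference between stages in the scaled length under peaks (log2) at each of the 9 genes, for windows of 100 kb to each side (blue) and 2.5 kb to each side (red), from the limma fits. Points are differences, bars 1 standard error, filled points have an adjusted p under 0.05, and the dotted line is the median of all windows of 100 kb; Prrx1, Tbx15 and Runx2 lie far to the left in ESC minus MEF, and Runx1 to the right at day 3.

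The batch named in the labels bears on these calls. The MEF and ESC H3K27ac libraries are all of batch DG-3458, the day 9 libraries all of EA-3702, and days 3 and 6 have both. With the batch as a further term, estimable through days 3 and 6, 5 members were lower and 2 higher at day 3 (Prrx1 added at -0.76, adjusted p 0.0165), 7 were lower at day 9 (Runx1 at -0.73 added, adjusted p 0.0356; Tbx18 at -0.68 lost, adjusted p 0.105) and 6 in ESC. Within DG-3458 alone, with the number in the title as a block, 5 members were lower and 1 higher at day 3 and 7 were lower in ESC (limma). The KLF4 libraries of day 3 and of ESC have no batch in common, so batch and stage cannot be told apart there. Calls near the threshold also rested on single libraries. Meox2 at day 3 was no longer called without either MEF library, day 3 EA-3702 or ESC DG-3458 2 (adjusted p 0.123, 0.0916, 0.0507 and 0.0502). Prrx2 at day 3 was lost without MEF DG-3458 1 (0.0596), and Tbx18 at day 9 without MEF DG-3458 1 or day 9 EA-3702 2 (0.0593 and 0.0539). Calls were gained without day 6 EA-3702 (Prrx1 at day 3, 0.0198, and Runx1 at day 9, 0.025) and without day 3 EA-3702 (Tbx18 in ESC, 0.0373). Day 3 cells were unsorted and day 6 and 9 cells sorted, so the sort and the day cannot be told apart either.

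Prrx1 had the longest acetylated length of the 9 windows of 100 kb to each side in MEF and kept little of it after day 3. Within 2.5 kb of the gene Runx2 had more, 45.12 and 44.08 kb in MEF against 31.51 and 32.13 kb at Prrx1. The gene spans chr1:163245119-163315145, and with its flanks it held 63.4 and 63.6 kb under H3K27ac peaks in the MEF libraries. The day 3 libraries held 21.4, 12.6 and 13.3 kb, the day 6 libraries 1.4, 0.976 and 4.49 kb, the day 9 libraries 2.68 and 3.88 kb and the ESC libraries 1.71 and 1.46 kb. Every later library lay below both MEF libraries. The scaled difference from MEF was -0.58 on day 3 (SE 0.27, adjusted p 0.104), -3.35 at day 9 (SE 0.30, adjusted p 1.36e-05) and -4.48 in ESC (SE 0.30, adjusted p 9.19e-07), the last the lowest of the 9 genes in that comparison. Of the 34 H3K27ac regions 33 were present in MEF, 6 at day 3 and 2 at each later stage.

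The region that ranked highest at Prrx1 in MEF covers the start of the gene, chr1:163305596-163315610. Its peaks covered 9767 and 9889 bp in MEF and 7785, 7024 and 6948 bp at day 3, then 488, 362 and 3129 bp at day 6, 1236 and 2569 bp at day 9, and 243 and 0 bp in ESC. Every day 3 library thus lay below both MEF libraries and above all later ones. Over the 300 bases of the promoter, peaks lay in both MEF and all 3 day 3 libraries. Later, 1 day 6 library, 1 day 9 library and no ESC library had a peak on the promoter. Most of the intragenic regions followed another course. A region of 8157 bp inside the gene, chr1:163279648-163287804, had 8157 and 7929 bp under peaks in MEF, 1285, 271 and 218 bp at day 3 and none in any later library. The region with the highest mean rank at day 9 is not at Prrx1 but 86.6 kb away near Gorab, chr1:163401730-163404422, and it was present at all 5 stages. All 4 KLF4 regions of the window were present at day 3. The KLF4 window difference, ESC minus day 3, was -3.18 (SE 0.69, adjusted p 0.0137), a call lost without day 3 EA-3702, day 3 DG-4040 or ESC EA-2697 (adjusted p 0.0588, 0.0593 and 0.0669). The one inside the start region, chr1:163308272-163308976, had a deposited fold enrichment of 12.08 and 3.85 at day 3, 3.43 and 5.62 at day 6 and 5.53 and 4.12 at day 9, and no peak in ESC or 2i.

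**Figure D2:**
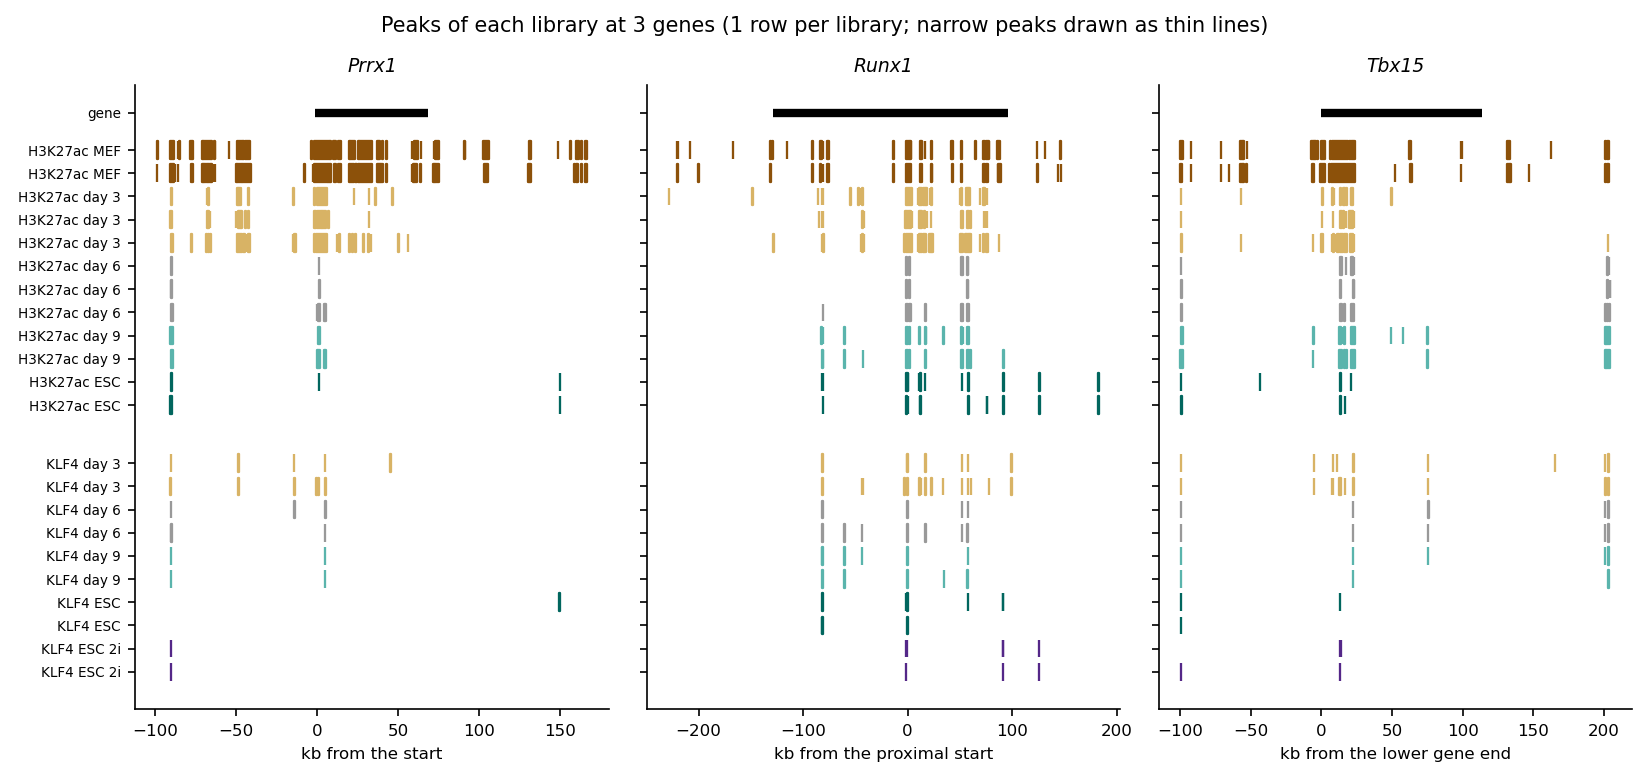
Peaks of each of the 22 libraries (1 row per library) at Prrx1, Runx1 and Tbx15, drawn by distance in kb from the start of Prrx1, the proximal start of Runx1 and the lower end of Tbx15, with the gene as a black bar. H3K27ac at Prrx1 is dense in MEF and reduced at days 6 and 9 to a region around the start and a site near Gorab, while the Runx1 gene also has day 3 peaks at places without MEF peaks.

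Prrx2, the paralog of Prrx1, lies among active neighbours, and the width of the window decided its result. The gene spans chr2:30845064-30881251, and 7 other protein-coding genes share its window. The window held 49.9 and 47.9 kb in MEF, 15.5, 13.9 and 10.4 kb at day 3, 3.14, 2.08 and 5.59 kb at day 6, 16.7 kb in both day 9 libraries, and 39.7 and 36.2 kb in ESC. The scaled difference was -0.44 at day 3 (SE 0.11, adjusted p 0.0073), -0.78 at day 9 (SE 0.12, adjusted p 0.000383) and 0.01 in ESC (SE 0.12, adjusted p 0.973). The day 3 call did not hold within 2.5 kb (-0.49, SE 0.40, adjusted p 0.379), and by number of peaks it turned to 0.14 (adjusted p 0.428). Inside the gene and within 2.5 kb of it the ESC libraries held only 0.26 to 0.57 kb, against 15.8 to 17.1 kb in MEF, and that difference was -3.67 (SE 0.44, adjusted p 0.000106). Of the 7 regions there, all were present in MEF, 4 at day 3, 2 at day 9 and none in ESC. The region that ranked highest in MEF lies 99.6 kb away, chr2:30742036-30745491, and was present at all 5 stages. The start region, chr2:30844962-30849553, had 4530 and 4517 bp in MEF, 1198, 1003 and 943 bp at day 3, none at day 6, 345 and 488 bp at day 9, and 0 and 259 bp in ESC. The acetylation that the wide window holds in ESC therefore lies mostly outside the gene, at sites such as those near Ptges, a prostaglandin E synthase gene.

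KLF4 at the Prrx2 window was higher in ESC than at day 3 (0.73, SE 0.19, adjusted p 0.0269), with 5.88 and 2.69 kb at day 3, 2.67 and 2.49 kb at day 6, 1.92 and 2.01 kb at day 9, 2.95 and 4.84 kb in ESC and 4.01 and 4.61 kb in 2i. In base pairs the day 3 and ESC libraries overlap. The direction turned in narrower windows, at -0.57 within 2.5 kb (SE 0.45, adjusted p 0.505) and -0.15 within 50 kb. At day 3 a KLF4 region lay on the start of the gene, chr2:30845053-30845708, with folds of 3.15 and 2.66. It had no peak at days 6 and 9, 1 of 2 libraries in ESC (2.69) and both in 2i (4.93 and 4.1). The KLF4 region with the highest mean rank in ESC lies at the other end of the gene, chr2:30881173-30881630, without a peak at day 3 or day 9, with folds of 2.82 and 2.46 at day 6, 6.16 and 3.72 in ESC and 9.61 and 4.79 in 2i. The one with the highest mean rank at day 3, chr2:30919664-30920841 near Ptges, had folds of 8.42 and 4.16. No MEF peak of H3K27ac lay over it, and all 3 day 3 libraries had one there (872, 569 and 523 bp), next to a part of the same H3K27ac region that was present in MEF. The Prrx2 call for KLF4 was lost without day 3 DG-4040, either day 9 library or ESC EA-2697 (adjusted p 0.137, 0.0533, 0.0528 and 0.157).

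**Figure D3:**
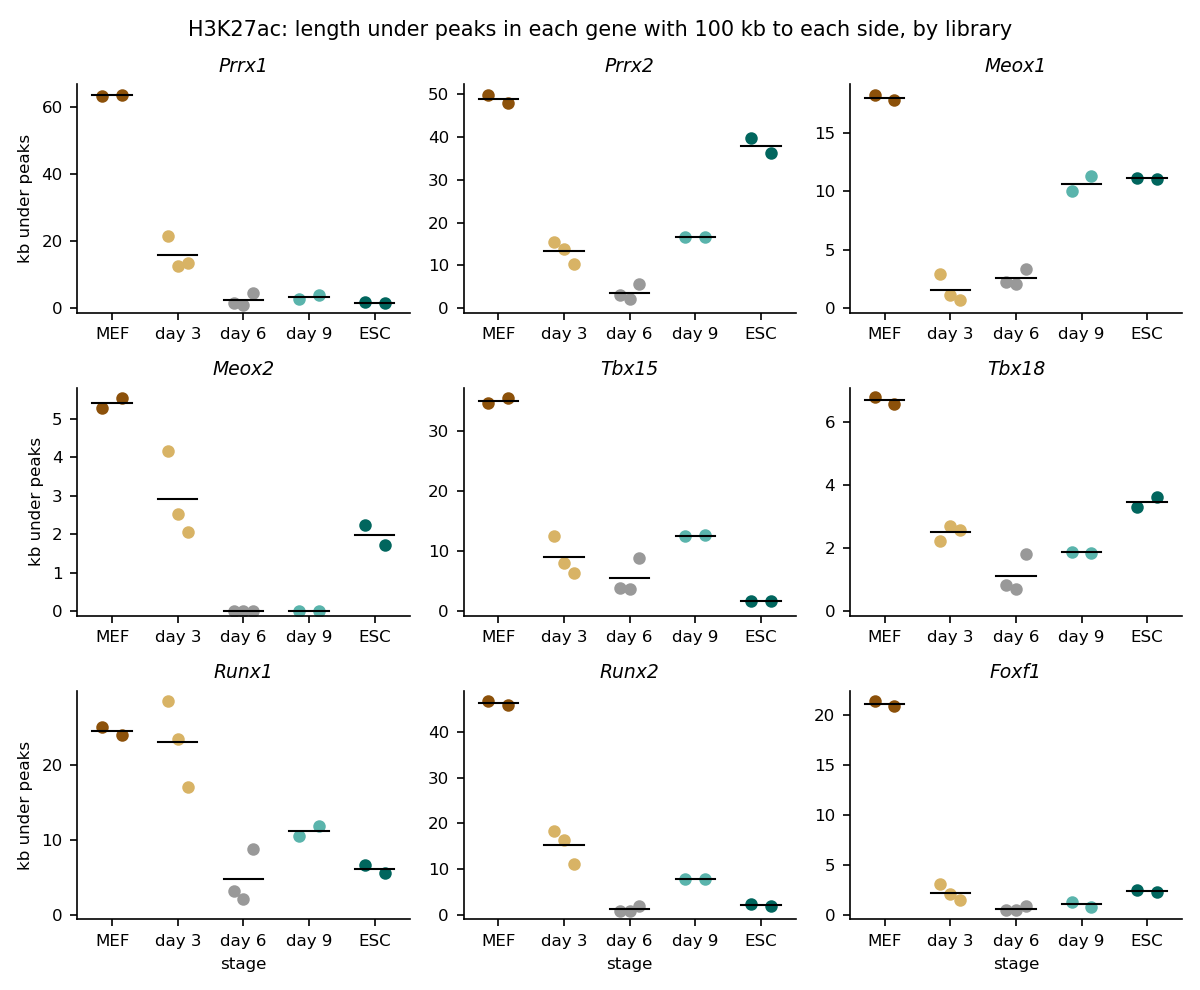
Length under H3K27ac peaks (kb) in each gene with 100 kb to each side, for each library (points) with the mean of the stage (line), without scaling. In all 9 genes but Runx1 every day 3 library lies below both MEF libraries, and Prrx2, Meox1, Meox2, Tbx18 and Foxf1 lie higher in both ESC libraries than in any day 6 library.

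The Meox genes carried little acetylation of their own, at most 3 kb within 2.5 kb of the gene in any library. Meox1 (chr11:101877510-101894354) held 18.2 and 17.8 kb in MEF in its window, 2.95, 1.09 and 0.672 kb at day 3, 2.27, 2.07 and 3.36 kb at day 6, 9.99 and 11.3 kb at day 9, and 11.1 kb in both ESC libraries. Its day 3 difference was -2.09 (SE 0.29, adjusted p 0.000309), the lowest of the 9 genes there, and those of day 9 and ESC were -0.0029 and -0.31 (adjusted p 1 and 0.416). Within 2.5 kb the ESC difference was -0.72 (SE 0.09, adjusted p 0.00015). The gene itself followed another course than its window. Its 1 intragenic MEF region, chr11:101880506-101882145, had 1102 and 1622 bp in MEF and no peak in any later library. A region 2.1 kb beyond its upper end, chr11:101896465-101897925, appeared in ESC alone with 1454 and 1011 bp. A KLF4 region inside it, chr11:101897048-101897364, was listed in 1 of 2 serum ESC libraries (fold 1.97) and in both 2i libraries (4.16 and 4.26). The regions that held the window up at day 9 lie near Etv4, Sost, and the Dusp3 and Cfap97d1 genes. Among them is chr11:101961583-101964862 at Sost, an inhibitor of bone formation, with no MEF peak, 1269, 274 and 0 bp at day 3, 3024 and 3280 bp at day 9, and 676 and 474 bp in ESC. KLF4 was listed at the same place. The region chr11:101962573-101963244 had folds of 9.03 and 11.18 at day 3, 6.12 and 11.43 at day 6 and 11.56 and 14.44 at day 9, and no peak in ESC or 2i. The KLF4 window difference of Meox1 was 1.12 (SE 0.41, adjusted p 0.0849).

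Meox2 (chr12:37108540-37179534) had no H3K27ac peak left at day 6. Its window held 5.28 and 5.53 kb in MEF, 4.17, 2.54 and 2.05 kb at day 3, no peak in any of the 5 libraries of days 6 and 9, and 2.24 and 1.73 kb in ESC. Scaled, it was higher at day 3 (0.44, SE 0.15, adjusted p 0.0283) and lower at day 9 (-2.91, SE 0.16, adjusted p 5.6e-07) and in ESC (-0.88, SE 0.16, adjusted p 0.000812). The day 3 call turned to -0.84 without scaling and was -0.04 by number of peaks (adjusted p 1). Within 2.5 kb of the gene the day 3 difference was 1.52 (SE 0.13, adjusted p 1.83e-05). The ESC call turned to 0.56 with equal numbers of top peaks (SE 0.42, adjusted p 0.283), and it was -0.23 within 2.5 kb (SE 0.14, adjusted p 0.21) and -0.03 within 50 kb (adjusted p 0.9). Of its 9 MEF regions, 7 (77.78%) had no peak at day 3, beside 59.73% over the genome. Among the 7 was the one that ranked highest in MEF, chr12:37018524-37019934, 88.6 kb from the gene (1411 and 1279 bp in MEF, none in any later library). A pair of neighbouring regions inside the gene had a peak in all 3 day 3 libraries. At chr12:37122252-37123491 the peaks covered 346 and 715 bp in MEF and 1240, 653 and 981 bp at day 3, and at chr12:37123656-37124722 they covered 665 and 720 bp and then 1067, 395 and 847 bp. MEF and day 3 overlap in both. The ESC acetylation sits elsewhere, at 3 regions without a MEF peak, of which chr12:37160499-37161643 lies inside the gene with 1145 and 1087 bp. KLF4 was lower in ESC than at day 3 (-2.45, SE 0.63, adjusted p 0.0245), a call lost without day 3 EA-3702, day 3 DG-4040 or ESC EA-2697 (adjusted p 0.0893, 0.0761 and 0.145) and with a pseudocount of 1 (0.0837). Its region chr12:37163751-37164195 had folds of 10.35 and 5.32 at day 3 and 3.62 and 4.82 at day 6 and no later peak, and 2 of the 3 day 3 H3K27ac libraries had a peak there against none in MEF.

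Tbx15 and Tbx18 were marked differently in extent and in persistence. Tbx15 (chr3:99240348-99354260) held 34.6 and 35.6 kb in MEF, 12.6, 8.01 and 6.36 kb at day 3, 3.83, 3.69 and 8.96 kb at day 6, 12.5 and 12.7 kb at day 9, and 1.75 and 1.74 kb in ESC. It was lower at day 3 (-0.55, SE 0.11, adjusted p 0.00287), at day 9 (-0.70, SE 0.12, adjusted p 0.00105) and in ESC (-3.54, SE 0.12, adjusted p 1.03e-08). The day 3 call did not hold within 2.5 kb of the gene (-0.09, SE 0.14, adjusted p 0.692) or within 50 kb (-0.36, adjusted p 0.0778), and by number of peaks the sign turned, at 0.20 (adjusted p 0.457). The day 9 call did not hold by number of peaks (-0.12, adjusted p 0.687) or with equal numbers of top peaks (-0.98, adjusted p 0.0598). Its broad intragenic region, chr3:99247207-99264482, is 17276 bp wide, the widest at the 9 genes. Its peaks covered 16888 and 17156 bp in MEF, 9438, 6411 and 5629 bp at day 3, 2647, 1729 and 5424 bp at day 6, 5545 and 6467 bp at day 9, and 1058 and 873 bp in ESC. Each day 6 and day 9 library thus held more acetylated DNA within 2.5 kb of Tbx15 than of Prrx1 or Meox2. Between libraries the day 6 values of Tbx15 and Prrx1 overlap, with 3.13 kb at Prrx1 in EA-3702 and 1.73 kb at Tbx15 in DG-3458 2. A region over the lower end of the gene, chr3:99239725-99242881, was present in MEF and at day 3 and had no peak later.

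A distal region of Tbx15 had its widest peaks at day 9 and none in ESC. At chr3:99441823-99444937, 87.6 kb beyond the gene, peaks covered 1497 and 1821 bp in MEF, 353, 0 and 0 bp at day 3, 857, 1250 and 2141 bp at day 6, 2882 and 3081 bp at day 9 and none in ESC. Both day 9 libraries lay above all others. KLF4 within it, chr3:99443182-99444011, had folds of 4.97 and 4 at day 3, 13.26 and 7.73 at day 6, 15.12 and 15.47 at day 9 and none in ESC or 2i. The KLF4 region of Tbx15 with the highest mean rank at day 3 is inside the broad region, chr3:99262559-99263201, with folds of 7.15 and 5.89 at day 3, 12.19 and 11.23 at day 6, 5.92 and 6.96 at day 9 and no ESC peak. An intragenic region without MEF peaks, chr3:99314910-99316018, was acetylated at day 9 alone (1087 and 702 bp), overlapping a KLF4 region, chr3:99315802-99316241, with folds of 4.7 and 2.4 at day 3, 3.81 and 4.92 at day 6, and 5.25 in 1 of 2 day 9 libraries. Over the whole window KLF4 fell from day 3 to ESC by 2.45 on the log2 scale (SE 0.33, adjusted p 0.00308). The library values were 4.91 and 2.46 kb at day 3, 2.2 and 2.03 kb at day 6, 1.95 and 1.45 kb at day 9, 0.188 and 0.507 kb in ESC and 0.599 and 0.506 kb in 2i.

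Tbx18 (chr9:87702800-87731260) had a small and lasting mark. Its window, which holds no other protein-coding gene, held 6.79 and 6.6 kb in MEF, 2.23, 2.71 and 2.58 kb at day 3, 0.845, 0.703 and 1.82 kb at day 6, 1.9 and 1.85 kb at day 9, and 3.32 and 3.62 kb in ESC. Of its 3 differences in the wide window the one of day 9 was called (-0.91, SE 0.25, adjusted p 0.0116), though not within 2.5 kb (-0.30, SE 0.23, adjusted p 0.306), with 0.03 at day 3 (SE 0.23, adjusted p 0.98) and -0.50 in ESC (SE 0.25, adjusted p 0.108). Within 2.5 kb the ESC difference was called, at -1.25 (SE 0.23, adjusted p 0.00157). The start region, chr9:87728328-87731862, was present at every stage, with 3505 and 3351 bp in MEF, 1743, 1742 and 1919 bp at day 3, 845, 703 and 1825 bp at day 6, 1900 and 1847 bp at day 9, and 821 and 1105 bp in ESC. Over the 300 bases of the promoter itself, H3K27ac peaks lay in both MEF libraries and in no later one. The later peaks of this region thus lay beside the promoter. The rest of the ESC signal came from 3 regions outside the gene, of which 2 had no peak before ESC. KLF4 had 1 region, chr9:87739060-87739529, 7.8 kb beyond the gene, with weak peaks in ESC (folds of 3.47 and 2.43) and in 1 of 2 day 3 libraries (2.93). Tbx18 thus had the fewest KLF4 regions of the 9 genes.

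Runx1 had the highest scaled H3K27ac difference of the 9 genes at day 3 in the windows of 100 kb to each side, while within 2.5 kb it was 1.44 (SE 0.22, adjusted p 0.000801) and that of Meox2 was 1.52. The gene spans chr16:92601466-92826074, and Clic6 is the other protein-coding gene in its window. The window held 25.0 and 24.0 kb in MEF and 28.6, 23.5 and 17.0 kb at day 3, then 3.17, 2.13 and 8.82 kb at day 6, 10.6 and 11.8 kb at day 9, and 6.6 and 5.51 kb in ESC. In base pairs MEF and day 3 overlap, while the median window shrank, so the scaled difference was 1.30 (SE 0.21, adjusted p 0.000612), against -0.12 without scaling. At day 9 it was -0.36 (SE 0.23, adjusted p 0.196) and in ESC -1.55 (SE 0.23, adjusted p 0.000198). The day 3 regions were partly others than those of MEF: of 17 present at day 3, 8 (47.06%) had no peak in either MEF library, and over the genome this share was 26.4%. For the 9 genes together it was 15 of 69 (21.74%), below that background, so that Runx1 held most of these regions.

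The 8 regions lie inside the gene. The one of these with KLF4 at day 3, chr16:92638525-92641152, is 57.5 kb downstream of the proximal start. It had no MEF peak, 2337, 2147 and 1564 bp at day 3, 807, 512 and 1786 bp at day 6, 1890 and 2007 bp at day 9, and 230 and 351 bp in ESC. The KLF4 region in it, chr16:92639069-92640037, ranked highest at Runx1 at day 3. Its folds were 20.34 and 9.32 at day 3, 5.81 and 13.64 at day 6, and 11.17 and 14.13 at day 9, with 1.97 in 1 of 2 ESC libraries and no peak in 2i. The region upstream of the proximal start, chr16:92739603-92740667, had 1015, 994 and 845 bp at day 3, no MEF peak, and later a peak in 1 day 9 library alone (367 bp). The MEF region that ranked highest, chr16:92619749-92622635, went the opposite way, with 2583 and 2413 bp in MEF, 1787, 459 and 650 bp at day 3, none at days 6 and 9, and 467 bp in 1 ESC library. A further region, chr16:92678825-92682461, had 240 and 0 bp in MEF and 2832, 3386 and 2669 bp at day 3, and the KLF4 region within it had folds of 14.93 and 3.45 at day 3, 3.48 in 1 of 2 day 6 libraries and no later peak.

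At the proximal promoter, shown above, the H3K27ac region chr16:92692744-92699403 had 4996 and 5313 bp in MEF, 5813, 5815 and 5759 bp at day 3, 1713, 1623 and 3140 bp at day 6, 2488 and 3264 bp at day 9, and 2009 and 1809 bp in ESC. All 3 day 3 libraries lay above both MEF libraries in base pairs, although the lists of day 3 were shorter. The KLF4 region on the promoter, chr16:92697187-92698086, had folds of 10.47 and 3.35 at day 3, 6.59 and 4.53 at day 6, 4.37 and 6.64 at day 9, 3.61 and 4.07 in ESC and none in 2i. The 2i libraries had their peaks at chr16:92698714-92699073, upstream of it, with folds of 4.12 and 3.28, where 1 day 3 and 1 ESC library also had one. At the distal start, a region just upstream of the gene, chr16:92827549-92829040, had 998 and 1302 bp in MEF and no later peak. The window's KLF4 length was 7.08 and 2.5 kb at day 3, 2.41 and 2.1 kb at day 6, 2.04 and 1.87 kb at day 9, 0.554 and 1.25 kb in ESC and 0.859 and 0.867 kb in 2i, a fall of -1.45 from day 3 to ESC (SE 0.27, adjusted p 0.00849), which was lost without ESC EA-2697 (adjusted p 0.0623).

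Runx2 (chr17:44495987-44814797) had the most MEF regions of the 9 genes, 38, in the widest of the 9 windows (518.8 kb). Of these regions 22 (57.89%) had no peak at day 3, near the 59.73% over the genome. Its window held 46.8 and 46.1 kb in MEF, 18.4, 16.4 and 11.1 kb at day 3, 0.828, 0.775 and 1.97 kb at day 6, 7.84 and 7.76 kb at day 9, and 2.24 and 1.83 kb in ESC. The scaled difference was -0.17 at day 3 (SE 0.11, adjusted p 0.223), -1.76 at day 9 (SE 0.12, adjusted p 2.49e-06) and -3.77 in ESC (SE 0.12, adjusted p 4.84e-09). The region on the promoter shown above, chr17:44813503-44815706, had 2097 and 1783 bp in MEF, 1280, 1279 and 786 bp at day 3 and none later. The widest, chr17:44732406-44739583 inside the gene, went from 7117 and 6959 bp in MEF to 4904, 3261 and 3421 bp at day 3, then 384 bp in 1 day 6 library, none at day 9 and 638 and 680 bp in ESC. The one with the highest mean rank, chr17:44776365-44778148, lies inside the gene and within 2.5 kb of Supt3 and was present at all 5 stages.

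KLF4 at Runx2 changed from day 3 to ESC by -0.74 (SE 0.23, adjusted p 0.052). The region with the highest mean rank at day 3 and in ESC lies 22.8 kb downstream of the gene, chr17:44472480-44473234, and had a peak in all 10 KLF4 libraries. The folds were 15.43 and 12.49 at day 3, 16.74 and 10.68 at day 6, 15.89 and 16.61 at day 9, 7.54 and 6.65 in ESC and 4.69 and 7.19 in 2i. H3K27ac there, chr17:44472000-44473794, had no MEF peak, 1335, 1072 and 951 bp at day 3, 0, 214 and 367 bp at day 6, 1720 and 1578 bp at day 9, and 0 and 223 bp in ESC. KLF4 was thus listed at a site that had no MEF peak of H3K27ac and whose acetylation was present at days 3, 6 and 9. A KLF4 region that appears late, chr17:44547776-44548389 inside the gene, had no day 3 peak, 6.62 in 1 day 6 library, 11.47 and 11.77 at day 9 and none in ESC, and the H3K27ac regions that overlap either end of it were present at day 9 alone.

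**Figure D4:**
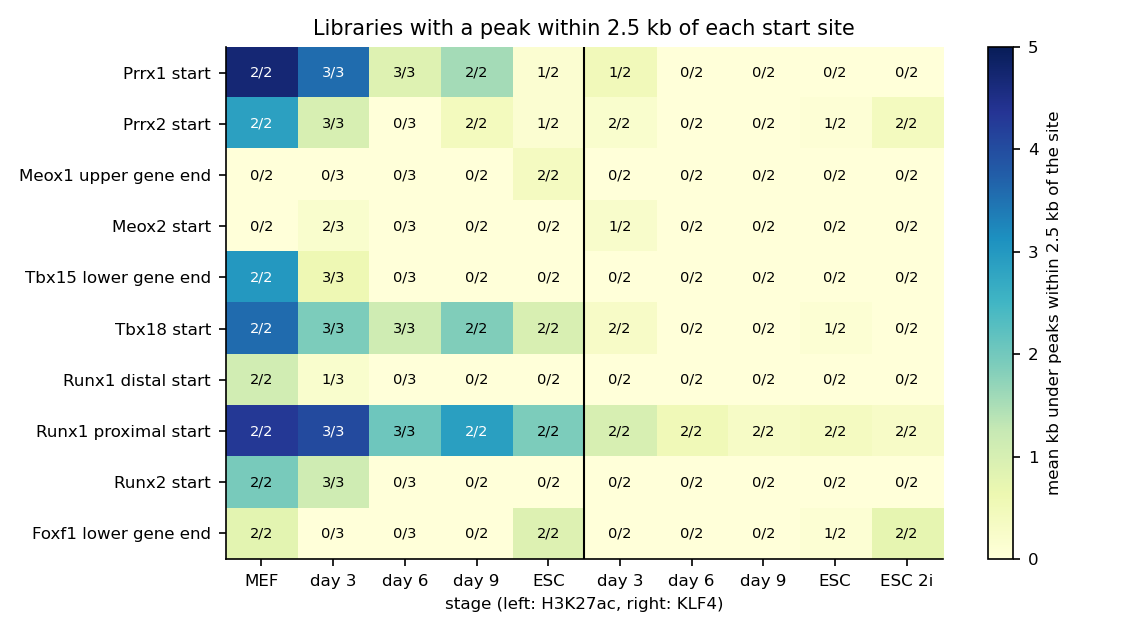
Number of libraries with a peak within 2.5 kb of each start site, or of a gene end where the table has no promoter, over the number of libraries of the stage, coloured by the mean kb under peaks (left of the line H3K27ac, right KLF4). The proximal start of Runx1 and the start of Tbx18 have an H3K27ac peak in every library, and Runx2 and the Tbx15 end lose theirs after day 3.

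Foxf1 (chr8:121084386-121088154), the shortest of the 9 genes, had little acetylation of its own. The window held 21.4 and 20.9 kb in MEF, 3.07, 2.06 and 1.47 kb at day 3, 0.442, 0.487 and 0.833 kb at day 6, 1.28 and 0.789 kb at day 9, and 2.5 and 2.22 kb in ESC. It was lower at day 3 (-1.74, SE 0.20, adjusted p 9.62e-05), day 9 (-3.11, SE 0.22, adjusted p 3.34e-06) and in ESC (-2.50, SE 0.22, adjusted p 6.6e-06). Most of the MEF length lies at its forkhead neighbours Foxc2 and Foxl1, with 6571 and 6726 bp in 1 region near Foxc2, chr8:121116098-121122862. The region that ranked highest in MEF, chr8:121107179-121109075 near Mthfsd, was present at all stages. The KLF4 region that ranked highest in ESC lies 67.4 kb away, chr8:121016636-121016955, with folds of 4.24 and 2.71. The 1 region over Foxf1, chr8:121083486-121084825, had 841 and 525 bp in MEF, no peak at days 3, 6 and 9, and 381 and 906 bp in ESC. Within 2.5 kb of the gene the ESC difference was 0.28 (SE 0.19, adjusted p 0.254), not lower as in the wide window. KLF4 over the gene, chr8:121083604-121084534, was listed in 1 of 2 ESC libraries (fold 2.35) and in both 2i libraries (4.43 and 4.37), and at no day of reprogramming. The 2i libraries held 3.25 and 1.37 kb of KLF4 peaks in the window, against at most 0.597 kb in any other library. ESC and 2i libraries were not compared with a test here.

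**Figure D5:**
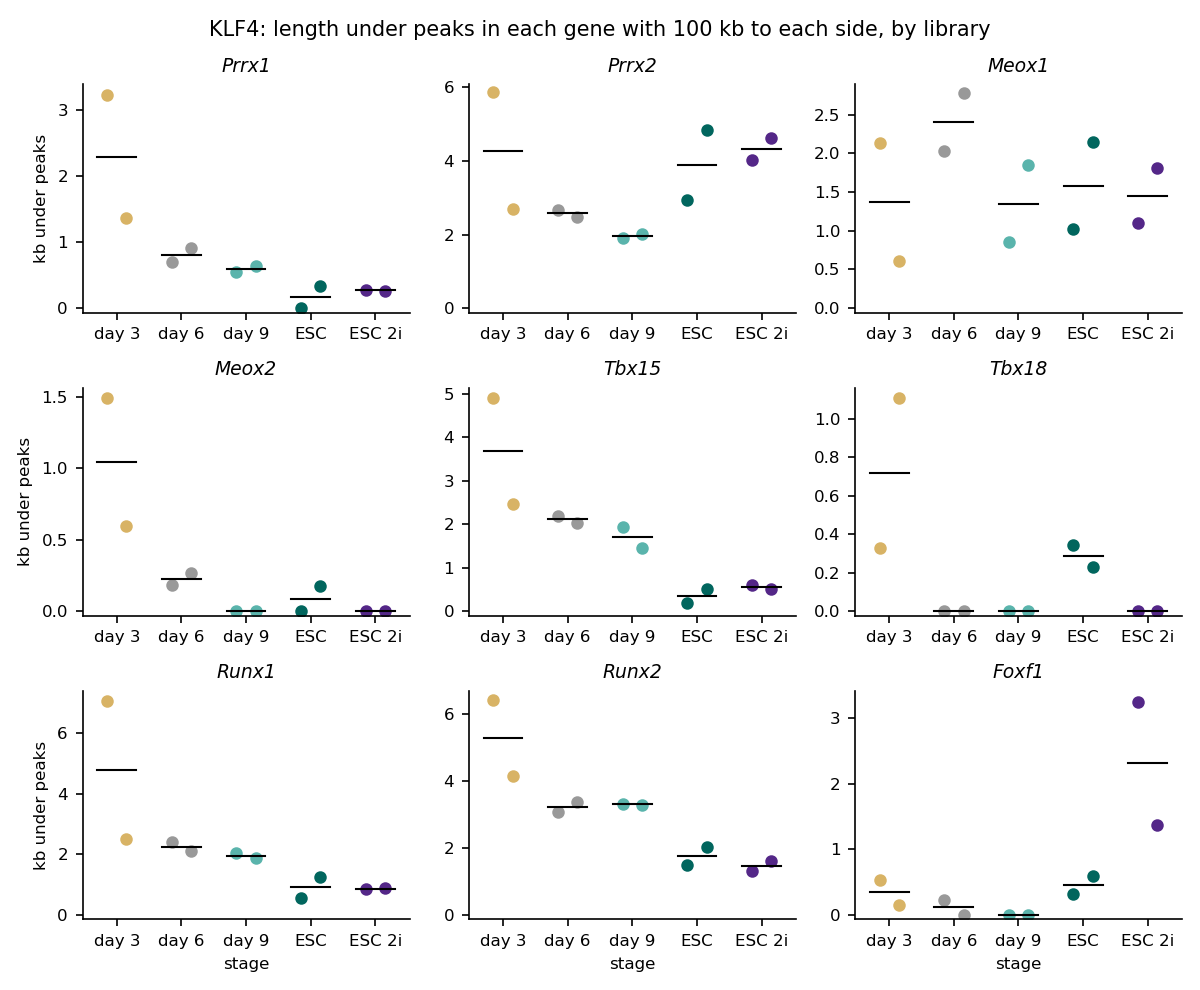
Length under KLF4 peaks (kb) in each gene with 100 kb to each side, for each library (points) with the mean of the stage (line), without scaling. At Prrx1, Meox2, Tbx15, Runx1 and Runx2 both day 3 libraries lie above both ESC libraries, the day 3 library EA-3702 stands above DG-4040 at all genes but Tbx18, and Foxf1 is highest in 2i.

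The KLF4 regions of day 3 were followed to later stages, as counts without a test. Of the 35, 9 (25.71%) were present in ESC and 15 (42.86%) at day 9, while 42.1% of all day 3 KLF4 regions were present in ESC and 58.2% at day 9. In ESC 21 of the 35 (60.0%) had no peak in either library, beside 40.3% over the genome. Of the 35, 20 (57.14%) lay over H3K27ac of MEF and 24 (68.57%) over H3K27ac of day 3, beside 48.8% and 58.7% over the genome. The 9 kept ones lay partly at neighbours of the members, as at Wars2 and at Dusp3. Day 3 KLF4 also had 1 library much longer than the other. EA-3702 covered 15.2 Mb and DG-4040 8.17 Mb, and the longer one exceeded the shorter at 8 of the 9 genes. The calls rested on few libraries: without day 3 EA-3702, day 3 DG-4040 or ESC EA-2697, 2, 2 and 1 of the 9 genes were lower in ESC in place of 4, and Tbx15 was the 1 gene called in all 3 cases. Over all windows 2306, 1151 and 554 were then called, and 2239 without ESC EA-2643, in place of 3641.

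Acetylation that appeared at day 3 and acetylation that left were set against KLF4. Of the 15 H3K27ac regions at the 9 genes that were present at day 3 and absent in MEF, 6 (40.0%) held a KLF4 region of day 3, 3 of them at Runx2 and 1 each at Runx1, Meox1 and Meox2. Over the genome this was 40.1%, close to the members' share. Of the 53 regions present in both MEF and day 3, 19 (35.8%) held one, beside 41.0% of all. Of the 105 regions present in MEF and absent at day 3, 1 (0.952%) held one, beside 1.94% over the genome. It is chr3:99441161-99441773, 86.9 kb beyond Tbx15, with 391 and 316 bp under H3K27ac peaks in MEF, and the KLF4 region that overlaps it, chr3:99440941-99441550, had folds of 13.19 and 4.79 at day 3. The regions that left were narrower, with a median of 654 bp against 2687 bp for those kept, and the part of width in these shares was not tested.

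Genes of the same families were tested from the same fits, in windows of 100 kb to each side, so a call may rest on peaks outside the gene. Their counts stand beside the shares of all windows: 19.2% lower and 31.9% higher at day 3, 16.9% and 41.7% at day 9, 25.8% and 41.3% in ESC, and 6.17% and 12.1% for KLF4. Of 18 other homeobox genes of mesenchyme, 17 were tested for H3K27ac. At day 3, 11 were lower and 3 higher, at day 9 12 and 4, and in ESC 11 and 0. Msx1, Msx2, Six2, Dlx5, Dlx6 and Lhx9, which act in patterning, were among those lower in all 3 comparisons. Dlx5 and Dlx6 are neighbours with overlapping windows and are no independent count, and the same holds in the lists below for Tbx2 and Tbx4, Tbx3 and Tbx5, Foxc1 and Foxf2, Spp1 and Ibsp, Nanog and Dppa3, and Krt8 and Krt18. Meis1 and Meis2, cofactors of HOX proteins, and Barx1 were higher at days 3 and 9, and Meis2 was lower in ESC. Barx1 had no H3K27ac peak over the gene or within 2.5 kb in MEF or at days 3, 6 and 9. Its calls thus rest on other parts of the window. Of 9 other T-box genes, 3 were lower and 0 higher at day 3, 2 and 3 at day 9, and 3 and 4 in ESC, where Eomes and Tbx3 were among the higher ones. For KLF4 Tbx3 was higher of 8 tested. Of 5 Runx relatives and cofactors, 1 was lower and 1 higher in each of day 3 (Tle1 and Runx3) and ESC (Runx1t1 and Tle3), and at day 9 Runx1t1 was lower and Runx3 and Tle1 higher. Cbfb, the shared partner, was called in none of the 4 comparisons, and no gene of this list was called for KLF4.

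Of 8 other forkhead genes, 5 were lower and 1 higher at day 3, 4 and 1 at day 9, and 5 and 2 in ESC, with Foxc2, Foxl1 and Foxs1 lower in all 3, and for KLF4 1 (Foxp1) was lower. Foxc2 and Foxl1 share the window of Foxf1 and are no independent count. Of 7 bone genes with roles downstream of RUNX2, 2 were lower and 1 higher at day 3 and at day 9 (Spp1 and Ibsp, and Bglap), and 3 and 3 in ESC, where Ibsp, Col10a1 and Mmp13 were lower. For KLF4 1 was lower (Ibsp) and 1 higher (Alpl). Bglap, Ibsp and Mmp13 had no H3K27ac peak over the gene or within 2.5 kb in any library. Their H3K27ac calls thus rest on other parts of the window. Of the 10 fibroblast markers, 9 were lower at each of day 3, day 9 and ESC, with 0, 0 and 1 higher, and for KLF4 2 were lower and 1 higher. Of 10 pluripotency markers, 2 were lower and 3 higher at day 3, 0 and 6 at day 9, and 0 and 9 in ESC, and for KLF4 0 and 8. The day 3 counts of this list are near the shares of all windows. For the other cell types, 1 of 5 blood, 4 of 6 endothelial, 2 of 5 skeletal muscle and 1 of 5 epithelial markers were lower at day 3, and 0, 1, 0 and 2 were higher. At day 9 1, 2, 1 and 0 were lower and 1, 1, 2 and 3 higher, in ESC 1, 2, 1 and 2 and 1, 2, 2 and 3, and for KLF4 none was lower and 0, 1, 1 and 2 were higher.

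The windows whose H3K27ac pattern was most like each member over the 12 libraries were found by Pearson correlation of the log2 values among 20612 windows that do not overlap a member's. They are descriptions over libraries that share stages and lists, with no test. Prrx1 was nearest to Vsir (r = 0.987) and Me3 (0.977), Prrx2 to Smyd3 (0.967) and Tbc1d21 (0.966), Meox1 to Nectin1 (0.983) and Fitm2 (0.972), and Meox2 to Kcna5 (0.981) and Myzap (0.972). Tbx15 was nearest to Lrrc10 (0.990) and Cyp46a1 (0.986), Runx2 to Ccl8 (0.995) and the actin-binding gelsolin gene Gsn (0.989), and Foxf1 to Gas1 (0.976) and Trappc3l (0.975). Runx1, with its high day 3 values, was nearest to Hoxb5 (0.981) and Hoxb3 (0.980), HOX genes whose windows share peaks. Tbx18 had the weakest match, with Anapc13 (0.908) and Cep63 (0.903). The Hoxb5 window held 34.2 and 35.5 kb in MEF, 45.8, 34.8 and 27.8 kb at day 3, and 8.58 and 6.89 kb in ESC. As at Runx1, MEF and day 3 overlapped in base pairs and both ESC libraries lay below them.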

How the data were processed

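The members and the gene lists were chosen with earlier results of these data known. The submitters' processing notes name the mm10 build (GRCm38), cutadapt 1.8.1, Bowtie2 2.2.5, deepTools 2.3.6 and MACS2 2.1.1. Settings and peak-calling controls are not given in the sources used here. The authors deposited 1 peak list per library (22 lists). The deposited score is 10 times −log10 p, cut to whole numbers, and the deposited fold is an enrichment ratio per peak. The authors' −log10 p and −log10 q per peak served to rank and filter peaks within a list. The lowest −log10 p was 2.0. Read depth is unknown, and the 13 input libraries were not analysed here.

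Peaks on chromosomes 1 to 19 and X were used (Python 3.11.15, pandas 2.3.3). limma 3.58.1 (R 4.3.3; lmFit, eBayes with trend; two-sided) was fitted to log2 values with a pseudocount of 10 over 5 groups per mark, with Benjamini-Hochberg adjustment and a threshold of 0.05, and was tested on simulated data. Rank is the percentile of −log10 p within a list. Gene positions and promoters are RefSeq GRCm38.p6. Named regions are those with the highest mean rank in MEF and at day 9 (H3K27ac) and at day 3 and in ESC (KLF4). All other regions in the text were chosen after their values were seen. Replicate lists shared at most 15 identical intervals. The files of day 6 DG-3458 1 and 2 hold peak names with exchanged numbers, and the labels were followed. Alternatives changed the pseudocount, filter, scaling, peak set, window, batch term and libraries. Some results of the homeobox list are not reported here.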

Additional observations from a re-analysis of the deposited data

How the results depend on the processing

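At day 3, members lower were 4 as reported, 8 without scaling, and 2 each by number of peaks and within 2.5 kb. Members higher were 2 as reported, 1 each with a pseudocount of 1, a peak in at least 4 libraries, number of peaks and the replicate block, and 0 without scaling or with equal numbers of top peaks. At day 9, 1 member was higher with equal numbers of top peaks, and 7383 (no scaling) and 7566 (2.5 kb) windows were called in place of 12102. For ESC minus MEF 7851 were called within 2.5 kb in place of 13866. For KLF4, called windows were 3641 as reported, 1588 without scaling, 1078 at q up to 0.01, 2270 by number of peaks and 1169 within 2.5 kb. Members lower were 2 with a pseudocount of 1, 1 at q up to 0.01 and 2 by number of peaks. Members higher were 0 without scaling, at q up to 0.01, within 2.5 kb and within 50 kb, and 2 with equal numbers of top peaks.

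Signs turned as follows, and the cause was not tested. Day 3: without scaling Meox2 -0.84, Tbx18 -1.26 and Runx1 -0.12, by number of peaks Prrx2 0.14, Meox2 -0.04, Tbx15 0.20 and Tbx18 -0.38, and at q up to 0.01 Tbx18 -0.05. Day 9: Meox1 0.68 with equal numbers of top peaks and 0.06 at q up to 0.01. ESC: Prrx2 -3.67 and Foxf1 0.28 within 2.5 kb, Meox2 0.56 and Prrx2 -0.07 with equal numbers of top peaks, and Prrx2 -0.36 without scaling, -0.01 at q up to 0.01 and -0.30 within 50 kb. KLF4 at Prrx2: -0.07 without scaling, -0.06 at q up to 0.01, -0.57 within 2.5 kb and -0.15 within 50 kb. KLF4 at Tbx18: 0.07 within 50 kb. Leaving out 1 library, the sign turned for Tbx18 at day 3 (range -0.14 to 0.26), Meox1 at day 9 (-0.08 to 0.07), Prrx2 in ESC (-0.03 to 0.04) and KLF4 at Tbx18 (-1.38 to 0.82), none of them called as reported. Of the members' differences over all alternatives, 30 changed sign, 719 kept sign and side of the threshold, 44 fell below it and 24 passed it.

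Regions with equal numbers of top peaks were 41 (MEF), 30 (day 3), 23 (day 9) and 16 (ESC). Within 2.5 kb H3K27ac had 85, 42, 7, 18 and 12, and KLF4 16, 12, 8, 4 and 7, from the first stage to the last. Within 50 kb H3K27ac had 12 at day 6 and 40 in ESC, and KLF4 had 11 in ESC and 12 in 2i. At q up to 0.01 KLF4 had 18 (day 3), 16 (day 6), 8 (ESC) and 11 (2i).

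Leaving out 1 library gave 7470 to 11706 called windows at day 3 (members lower 3 to 5, higher 1 to 2), 9450 to 13280 at day 9 (6 to 8 lower, 0 higher), 11087 to 14918 in ESC (6 to 7 lower, 0 higher) and 554 to 4219 for KLF4 (1 to 4 lower, 0 to 1 higher). H3K27ac regions at day 3 were 50 to 72. A stage left with 1 library gives no region count. The replicate block within batch DG-3458 called 11111 windows at day 3 and 14737 in ESC. Same-numbered libraries deviated together little (r from -0.0025 to 0.035 over 20649 windows), so no pairing by number showed in these values. Whether they share a culture or animal cannot be judged from this. A peak list records what passed a caller, so weak signal below it is not measured, and unknown depth limits every absence.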
